A study of Mus musculus with 8 samples.

Results

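Myostatin, the activins, their follistatin-type antagonists and the activin type II receptors were followed in hearts of mouse embryos at E12.5 as a set of 8 genes: Mstn, Inhba, Inhbb, Fst, Fstl1, Fstl3, Acvr2a and Acvr2b. All 8 were found in the count table by symbol, each on 1 row, out of 22869 distinct symbols. All 8 passed the filter on low counts, as did 14940 symbols in all. The set was chosen by the mutant and wild type levels of Mstn, which was lower in mutants. The mutant and wild type values of the 8 genes are therefore given as a description, without a test, while the comparison of cushion with ventricle, which the choice did not use, was tested.

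Myostatin and the activins are secreted ligands of the TGF-β superfamily. Activins are dimers of inhibin β chains, myostatin is a relative best known for restraining skeletal muscle growth, and both bind the type II receptors ACVR2A and ACVR2B. These recruit a type I receptor that phosphorylates SMAD2 and SMAD3. Follistatin and FSTL3 bind activins and myostatin outside the cell and block them. FSTL1 is a secreted glycoprotein that shares a follistatin domain and is abundant in mesenchyme. In the embryonic heart, TGF-β family signals between myocardium and endocardium drive the formation of cushion mesenchyme, from which valves and septa arise.

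The study profiled total RNA in 4 groups of 2 libraries each, all from C57BL/6 embryos at E12.5. These were AV cushion of mutants, AV cushion of wild type, ventricle of mutants and ventricle of wild type. The mutants are labelled NfatC1+/-; KLF2fl/fl and the controls wild type, while the description of the series names KLF2 fl/fl mice beside Nfatc1 KLF2 fl/fl ones. No recombinase is named, and whether +/- means loss of 1 Nfatc1 allele or a driver inserted there is not said. Nor do the labels tell whether embryos were pooled, or whether both libraries in a group had separate embryos as their source. The p-values below thus measure the spread between these libraries, which may be technical. Because each library is bulk tissue, fewer cells of a type and less RNA per cell cannot be told apart.

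Klf2, the transcription factor gene that the mutants carry as a floxed allele, had 1.96 and 0.651 CPM in the mutant cushion libraries, against 17.3 and 12.9 CPM in wild type cushion (CPM: counts per library total, scaled to a common size with TMM factors; replicate 1 is first throughout). In ventricle it had 0.736 and 0.625 CPM in mutants, against 11.7 and 9.19 CPM in wild type. Both mutant libraries lay below both wild type libraries in each tissue, as the labels have it. Library totals were between 18955733 and 26579215 counts, so that 1 CPM stood for at least 18.7 reads. The dissections were told apart by their markers: the summed level of 10 cushion mesenchyme markers was 8114 to 16730 CPM in the cushions and 1549 to 4530 CPM in the ventricles, and that of 5 AV canal myocardium markers was 251 to 304 CPM in the cushions and 16.7 to 37.7 CPM in the ventricles. Mutant cushion replicate 2 stood apart. On the first principal component, with 63% of the variance, it lay at -22.8, the other 3 cushions at -54.9 to -46.3 and the ventricles at 35.0 to 50.3, and its 6 ventricular chamber markers summed to 5538 CPM, against 2781 to 4327 CPM in the other cushions. Some results that rest on it, those of Mstn among them, are also given without it, while the cushion marker values are not.

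Mstn, which encodes myostatin, was a cushion transcript in these libraries and the most unevenly distributed of the 8 genes. In mutants, the cushions had 66.7 and 54.8 CPM and the ventricles 3.31 and 1.34 CPM. In wild type, the cushions had 133.6 and 84.1 CPM and the ventricles 6.79 and 4.12 CPM. All 4 cushion libraries lay far above all 4 ventricle libraries, in which the gene still had 30 to 127 reads. The level was 25.9-fold higher in cushion than in ventricle in mutants (log2 fold change 4.69 ± 0.47 SE, adjusted p = 0.00342, edgeR) and 19.95-fold higher in wild type (4.32 ± 0.45, adjusted p = 0.00208). These calls held in all 17 alternative settings in both genotypes, among them the one without mutant cushion replicate 2, where the log2 fold change in mutants was 4.83 (adjusted p = 0.0116).

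The 250 bases before the Mstn start are shown with those of Inhba and Fstl1, since these 3 genes passed the tissue test in both genotypes and have an entry in the RefSeq promoter table (build GRCm38.p6). Fst, which also passed in both genotypes, is named only. The table matched 7 of the 8 genes. Capitals mark E-boxes, CANNTG, a motif that reads the same on both strands and is bound by basic helix-loop-helix factors. The Mstn stretch is chr1:53061390-53061639, the Inhba stretch chr13:16011601-16011850 and the Fstl1 stretch chr16:37776805-37777054, all on the plus strand.
Mstn: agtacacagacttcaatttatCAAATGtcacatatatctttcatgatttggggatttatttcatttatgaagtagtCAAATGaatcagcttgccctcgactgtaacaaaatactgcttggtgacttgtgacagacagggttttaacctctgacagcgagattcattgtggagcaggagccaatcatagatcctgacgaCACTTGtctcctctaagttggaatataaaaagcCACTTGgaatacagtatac
Inhba: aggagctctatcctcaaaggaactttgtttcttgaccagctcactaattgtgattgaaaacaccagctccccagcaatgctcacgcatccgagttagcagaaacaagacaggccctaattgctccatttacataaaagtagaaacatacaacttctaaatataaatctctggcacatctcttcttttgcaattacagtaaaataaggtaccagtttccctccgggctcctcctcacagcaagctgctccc
Fstl1: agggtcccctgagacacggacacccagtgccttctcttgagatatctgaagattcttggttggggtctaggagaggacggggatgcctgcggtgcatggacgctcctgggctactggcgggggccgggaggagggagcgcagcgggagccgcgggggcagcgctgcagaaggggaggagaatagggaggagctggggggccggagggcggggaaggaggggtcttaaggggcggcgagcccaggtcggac
The Mstn stretch held 4 E-boxes, of which the nearest ended 13 bases before the start, while the Inhba and Fstl1 stretches held 0. Of 32851 promoter stretches of the same length in the table, 66.2% held at least 1 E-box and 3.8% held at least 4. CACCC or its complement GGGTG, the core of the motif that Krüppel-like factors bind, occurred 0 times before Mstn, 0 times before Inhba and 1 time before Fstl1, and in 52.0% of all stretches. CAGAC or its complement GTCTG, a SMAD-binding element, occurred 2 times before Mstn and in 42.2% of all stretches. TATAAA or its complement TTTATA occurred 1 time each before Mstn and Inhba, and in 12.4% of all stretches. In the 3 stretches, E-boxes shared 0 bases with matches of the other motifs. These matches are descriptions of the letters and not sites of binding.

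The other ligand genes were much less uneven. Inhba, which encodes the βA chain of activin A, had 15.1 and 8.25 CPM in mutant cushion and 2.29 and 2.68 CPM in mutant ventricle. In wild type it had 11.9 and 8.79 CPM in cushion and 2.83 and 1.53 CPM in ventricle. Every cushion library was above every ventricle library, and the mutant and wild type libraries overlapped in both tissues. Inhba was 4.68-fold higher in cushion in mutants (log2 2.23 ± 0.37, adjusted p = 0.0105, edgeR) and 4.72-fold higher in wild type (2.24 ± 0.38, adjusted p = 0.0061). The call in mutants was lost without mutant cushion replicate 1 (adjusted p = 0.063), mutant ventricle replicate 1 (0.06) or mutant ventricle replicate 2 (0.0594), and the call in wild type was lost without wild type ventricle replicate 2 (log2 1.86, adjusted p = 0.0673).

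Inhbb, which encodes the βB chain of activin B, was near 2 to 4 CPM everywhere. It had 3.73 and 3.26 CPM in mutant cushion and 2.49 and 2.59 CPM in mutant ventricle, and in wild type 4.41 and 2.69 CPM in cushion and 1.92 and 2.11 CPM in ventricle. The cushion libraries lay above the ventricle libraries in each genotype, but by little. The tissue difference did not pass in mutants (log2 0.46 ± 0.29, adjusted p = 0.388, edgeR) or in wild type (0.81 ± 0.30, adjusted p = 0.086). With the replicate number as a block the value in wild type passed (adjusted p = 0.0421).

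Among the antagonists, Fst, the gene of follistatin, showed the clearest tissue difference relative to its error. It had 12.95 and 14.4 CPM in mutant cushion and 2.90 and 3.22 CPM in mutant ventricle. In wild type it had 19.95 and 19.3 CPM in cushion and 2.94 and 2.53 CPM in ventricle. The replicates were close in each group, and cushions and ventricles did not overlap. Fst was 4.47-fold higher in cushion in mutants (log2 2.16 ± 0.18, adjusted p = 0.00101, edgeR) and 7.15-fold higher in wild type (2.84 ± 0.19, adjusted p = 2.00e-04). Both calls held in all 17 alternative settings.

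Fstl1 was by far the most abundant of the 8 genes. It had 3161 and 2713 CPM in mutant cushion and 1634 and 1841 CPM in mutant ventricle, and in wild type 2986 and 2676 CPM in cushion and 1607 and 1786 CPM in ventricle. The tissues did not overlap, and the genotypes did within each tissue. The level was 1.69-fold higher in cushion in mutants (log2 0.76 ± 0.17, adjusted p = 0.0271, edgeR) and 1.67-fold higher in wild type (0.74 ± 0.17, adjusted p = 0.0169). This small difference was the least steady of the 4 that passed. In wild type it was lost without any 1 of the 4 wild type libraries (adjusted p = 0.107 and 0.0659 without cushion replicates 1 and 2, 0.0872 and 0.0857 without ventricle replicates 1 and 2). In mutants, among the settings that left out 1 library, it passed only without mutant cushion replicate 2 (0.0352), with adjusted p between 0.0533 and 0.162 in the others.

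Fstl3, a second high-affinity antagonist of activins and myostatin, had 14.4 and 7.16 CPM in mutant cushion and 4.70 and 6.12 CPM in mutant ventricle. In wild type it had 10.8 and 9.34 CPM in cushion and 3.96 and 5.86 CPM in ventricle. The cushions were above the ventricles in each genotype, with mutant cushion replicate 2 the lowest cushion. The difference did not pass in mutants (log2 0.99 ± 0.34, adjusted p = 0.114, edgeR) or in wild type (1.03 ± 0.35, adjusted p = 0.0644), and passed in wild type with the replicate block (0.0325). Without mutant cushion replicate 2 it passed in mutants (1.41, adjusted p = 0.0277) and in wild type (0.0287), and without mutant cushion replicate 1 it passed in wild type (0.03).

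Neither type II receptor gene passed between the tissues. Acvr2a, which encodes a receptor for activins and myostatin, had 91.6 and 86.2 CPM in mutant cushion and 86.2 and 70.9 CPM in mutant ventricle, and in wild type 77.1 and 67.8 CPM in cushion and 95.3 and 97.5 CPM in ventricle. Cushion and ventricle libraries overlapped in mutants (log2 0.18 ± 0.14, adjusted p = 0.477, edgeR), while both wild type cushions lay below both wild type ventricles (-0.41 ± 0.14, adjusted p = 0.0602). The value in wild type passed with the replicate block (adjusted p = 0.00791) and without mutant ventricle replicate 1 (0.0425).

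Acvr2b, which encodes the other type II receptor, was low, with 2.80 and 2.17 CPM in mutant cushion and 3.96 and 3.80 CPM in mutant ventricle, and in wild type 4.23 and 3.92 CPM in cushion and 5.45 and 2.11 CPM in ventricle. Its tissue difference did not pass in mutants (log2 -0.65 ± 0.40, adjusted p = 0.367, edgeR) or in wild type (0.11 ± 0.39, adjusted p = 0.868). The 2 wild type ventricles differed more from each other than any 2 group means did.

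**Figure D1:**
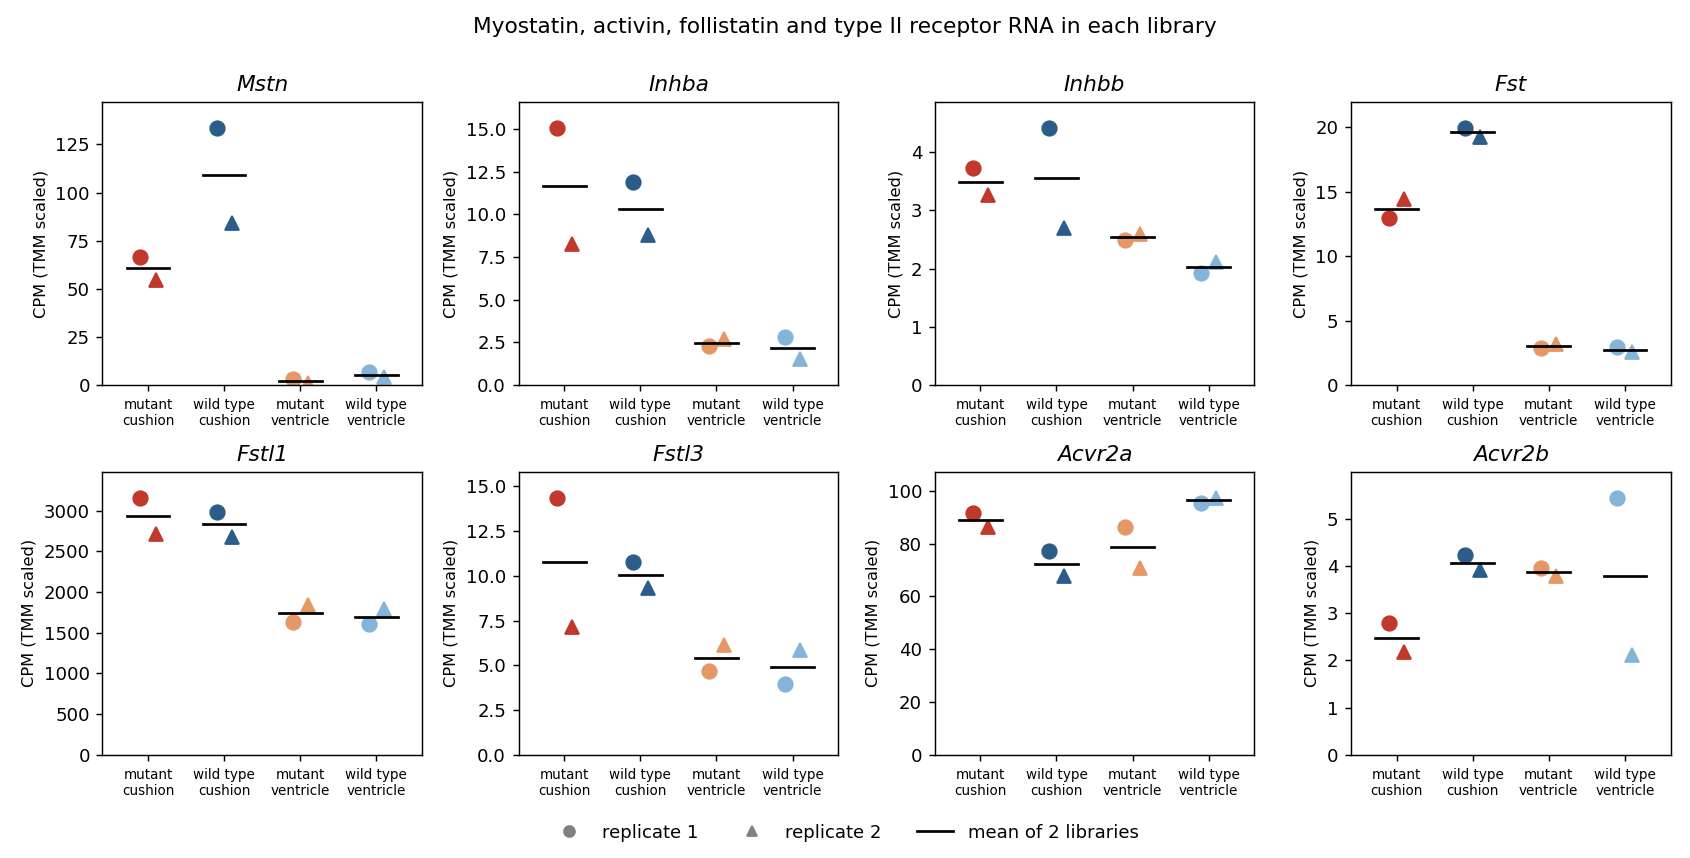
Level of each of the 8 genes in CPM after TMM scaling (y axis, from 0, own scale per gene) in the 4 groups; circles are replicate 1, triangles replicate 2 and bars the mean of 2 libraries. Mstn, Inhba, Inhbb, Fst, Fstl1 and Fstl3 are higher in every cushion library than in every ventricle library, and Mstn is lower in both mutant libraries of each tissue.

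Over the set, 4 of the 8 genes passed in mutants and 4 of 8 in wild type, and the 4 that passed in both were Mstn, Inhba, Fst and Fstl1, all higher in cushion. Of all 14940 genes, 9.42% passed in mutants (920 higher and 487 lower in cushion) and 23.1% in wild type (1861 higher and 1591 lower), and 5.09% were higher and passed in both genotypes. Without overlap of the libraries, 6 of the 8 genes were higher and 1 was lower in mutants, and likewise in wild type. Over all genes, 28.9% were higher and 24.2% lower in that way in mutants, and 33.5% and 31.8% in wild type, with 17.7% higher in both genotypes. The median log2 fold change of the 8 genes was 0.87 in mutants and 0.92 in wild type, beside 0.01 over all genes in each. With the replicate block 4 of 8 passed in mutants, beside 23.9% of all genes, and 7 of 8 in wild type, 6 higher and 1 lower, beside 41.4%. The 4 that passed in both genotypes were then all higher, beside 9.77% of all genes. Adjusting for GC content and length changed how the calls over all genes were split, to 1016 higher and 1162 lower in mutants (without it, 920 and 487) and to 1548 higher and 2073 lower in wild type (without it, 1861 and 1591).

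**Figure D2:**
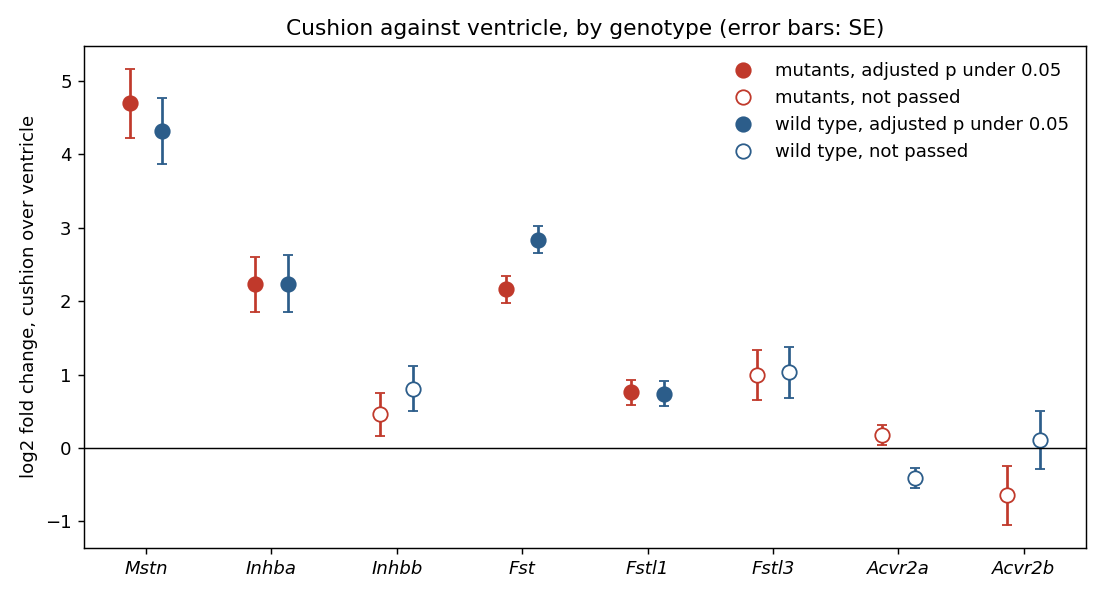
Log2 fold change of cushion over ventricle (y axis) for the 8 genes in mutants (red) and wild type (blue); bars are the SE and filled circles passed an adjusted p of 0.05 in edgeR. Mstn lies highest, at 4.69 in mutants and 4.32 in wild type, and the open circles of the receptor genes lie between -0.65 (Acvr2b in mutants) and 0.18 (Acvr2a in mutants).

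Per kilobase of transcript, the order of the genes differed between the tissues. In mutant cushion the mean level was 775 CPM per kb for Fstl1, 22.5 for Mstn, 15.6 for Acvr2a, 5.51 for Fstl3, 4.68 for Fst, 1.82 for Inhba, 0.821 for Inhbb and 0.782 for Acvr2b. Wild type cushion had 747 CPM per kb for Fstl1, 40.3 for Mstn and 12.7 for Acvr2a, followed by Fst at 6.71, Fstl3 at 5.14, Inhba at 1.62, Acvr2b at 1.28 and Inhbb at 0.835. Mstn was thus the most abundant ligand RNA of the set in the cushion. In mutant ventricle Fstl1 had 459 CPM per kb, Acvr2a 13.8, Fstl3 2.77, Acvr2b 1.22, Fst 1.05, Mstn 0.859, Inhbb 0.597 and Inhba 0.389. In wild type ventricle Fstl1 had 448, Acvr2a 16.95, Fstl3 2.51, Mstn 2.02, Acvr2b 1.19, Fst 0.937, Inhbb 0.474 and Inhba 0.342. The receptor Acvr2a and not a ligand came second in ventricle. Among the ligand genes of the set, Mstn was the most abundant in the ventricle of both genotypes too.

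The genotype values, which led to the choice of the set, were as follows. Mstn was lower in both mutant libraries than in both wild type libraries of each tissue. Its group means were 60.7 ± 8.45 CPM in mutant cushion and 108.9 ± 35.0 CPM in wild type cushion, and 2.33 ± 1.39 CPM in mutant ventricle and 5.45 ± 1.89 CPM in wild type ventricle (SD, n = 2 each). The log2 fold change, mutant over wild type, was -0.84 ± 0.38 (SE) in cushion and -1.22 ± 0.47 in ventricle. It stayed negative in all 17 alternative settings in each tissue, from -1.21 with the GC and length adjustment to -0.48 without wild type cushion replicate 1 in cushion, and from -2.02 without mutant ventricle replicate 1 to -0.72 without mutant ventricle replicate 2 in ventricle. Without mutant cushion replicate 2 the cushion value was -0.71.

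Fst was also lower in both mutant cushions than in both wild type cushions, at 12.95 and 14.4 CPM in mutants against 19.95 and 19.3 CPM in wild type (log2 -0.52 ± 0.17), while in ventricle the genotypes overlapped (0.16). Acvr2b was lower there in the same way, at 2.80 and 2.17 CPM in mutants against 4.23 and 3.92 CPM in wild type (-0.71 ± 0.40), and overlapped in ventricle (0.04). Acvr2a ran in opposite directions: its mutant libraries lay above the wild type libraries in cushion (0.30 ± 0.14) and below them in ventricle (-0.30 ± 0.14). Inhbb did not overlap in ventricle, where it was higher in mutants (0.33), and overlapped in cushion (-0.02). Inhba (0.17 in cushion and 0.19 in ventricle), Fstl1 (0.05 and 0.03) and Fstl3 (0.10 and 0.14) overlapped in both tissues.

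In cushion, 3 of the 8 genes were thus lower and 1 was higher in mutants without overlap, where 23.9% of all genes were lower and 24.5% higher in that way. In ventricle, 2 were lower and 1 was higher, where 14.6% of all genes were lower and 13.1% higher. Mstn alone of the 8 was lower in both tissues, as were 229 genes in all, or 1.53%. The median log2 fold change of the 8 genes was 0.02 in cushion and 0.09 in ventricle, and that of all genes -0.01 in both. Across all 14940 genes 0 passed an adjusted p of 0.05 between mutant and wild type cushion in edgeR (0%; 1699, or 11.4%, had an unadjusted p under that value, DESeq2 called 25, limma-voom 0 and the replicate block 129, or 0.863%). In ventricle 0 passed (0%; 342 unadjusted, or 2.29%, DESeq2 1, limma-voom 0, replicate block 1, or 0.00669%), and 0 passed for the difference between the 2 tissues' genotype effects (0%; 1776 unadjusted, or 11.9%, and 0 with DESeq2, limma-voom or the block).

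**Figure D3:**
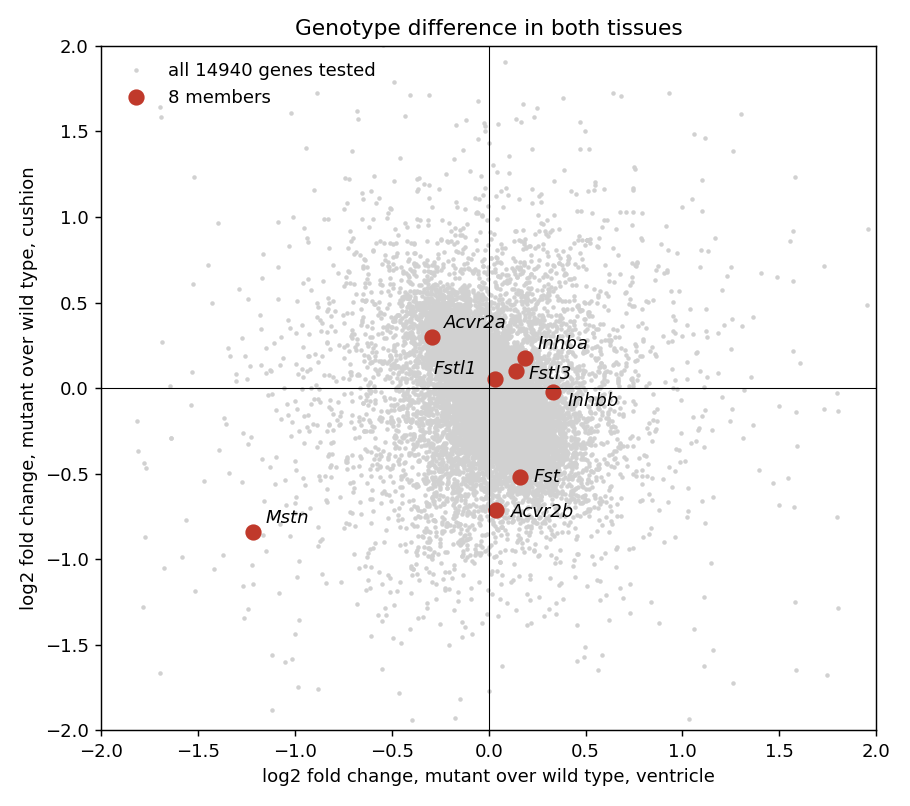
Log2 fold change, mutant over wild type, in ventricle (x axis) and cushion (y axis); grey points are the 14940 genes tested, of which 69 lie outside the axes, and red points are the 8 genes of the set. Mstn is low on both axes, at -1.22 and -0.84, and the other 7 genes lie nearer to 0 on the x axis.

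Mstn and the summed level of cushion mesenchyme markers were both higher in every cushion library than in every ventricle library. Between the genotypes, the marker sums overlapped in each tissue, while the Mstn levels did not. Between libraries of the same replicate number, however, the marker sum was lower in the mutant than in the wild type in each tissue, as was Mstn. The 10 mesenchyme markers, all of them measured, summed to 12660 and 8114 CPM in mutant cushion, against 16730 and 8262 CPM in wild type cushion, and to 4286 and 1549 CPM in mutant ventricle, against 4530 and 1982 CPM in wild type ventricle. Both Mstn and this sum were higher in replicate 1 than in replicate 2 of each group. The same held for the sums of the AV canal myocardium, cardiomyocyte and erythroid markers. Of the 10 mesenchyme markers, 9 had a negative genotype difference in cushion (median log2 -0.33) and 8 in ventricle (-0.21), and 0 passed in either tissue. Set against the mean log2 CPM of these markers, Mstn lay at -1.61 and -1.28 in mutant cushion, against -0.97 and -0.94 in wild type cushion, and at -3.54 and -3.75 in mutant ventricle, against -2.68 and -2.58 in wild type ventricle. The genotype difference of Mstn relative to the markers was -0.49 in cushion and -1.01 in ventricle. This value, added after the data were seen, draws on the same Mstn levels that chose the set and is a description only. In the tissue comparison all 10 markers were higher in cushion, with medians of 2.83 in mutants and 3.06 in wild type. All 5 AV canal myocardium markers were higher there too, with medians of 3.32 in mutants and 3.74 in wild type. The part of the mesenchyme in the Mstn values was not tested.

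Skeletal muscle is the tissue in which myostatin is best known, and 8 of its markers were read in the same libraries. Reads per library were 0 to 4 for Myod1, 0 to 2 for Myf5, 0 to 4 for Myf6, 0 to 2 for Pax7, 2 to 32 for Myog, 5 to 50 for Ryr1, 24 to 354 for Mybpc1 and 33 to 290 for Tnnt3, and 4 to 8 of the markers were detected in a library. Myod1, Myf5 and Pax7 were at 0 in wild type cushion replicate 1, which had 11 reads of Myog. The 8 markers summed to 20.3 and 19.5 CPM in mutant cushion, against 5.82 and 9.18 CPM in wild type cushion, without overlap. In ventricle they summed to 14.9 and 9.87 CPM in mutants, against 13.9 and 9.45 CPM in wild type. Most of each sum was Mybpc1 and Tnnt3. Mybpc1 had 17.4 and 3.08 CPM in mutant cushion, against 2.58 and 0.95 CPM in wild type cushion. Of all genes, 24.5% were likewise higher there without overlap. In wild type ventricle Mybpc1 had 10.6 and 4.65 CPM. Tnnt3 overlapped in cushion, at 2.11 and 12.6 CPM in mutants against 1.55 and 6.49 CPM in wild type. The largest part of the mutant cushion sum was thus Mybpc1 in replicate 1 and Tnnt3 in replicate 2. Of the 4 markers that could be tested, all had a positive genotype difference in cushion (median log2 0.99), and 0 passed in edgeR, 1 with the replicate block.

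Markers of 7 other cell types were set side by side in cushion in the same way. The 5 AV canal myocardium markers summed to 275.1 and 250.8 CPM in mutants, against 304.2 and 292.9 CPM in wild type, without overlap, and 4 of the 5 had a negative difference (median log2 -0.68). The 7 epicardial markers summed to 333.6 and 265 CPM in mutants, against 193.1 and 237.1 CPM in wild type, without overlap. The marker sums of the other types overlapped between the genotypes. The 6 leukocyte markers summed to 106.5 and 148.9 CPM in mutants, against 74.7 and 107.5 CPM in wild type, and all 6 had a positive difference (median 0.51). The 6 erythroid markers summed to 3419 and 887.6 CPM in mutants, against 1724 and 722.3 CPM in wild type, and all 6 had a positive difference (median 0.56). The 6 ventricular chamber markers summed to 2781 and 5538 CPM in mutants, against 4327 and 3743 CPM in wild type. The 12 cardiomyocyte markers had a median difference of -0.07 and the 9 endothelial markers one of 0.08. Of the markers of these 7 types 0 passed between genotypes in cushion in edgeR, and with the replicate block 1 AV canal and 1 epicardial marker did. The part of these cell types, skeletal muscle included, in the genotype values of the 8 genes was not tested.

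The genes whose pattern over the 8 libraries was most like that of Mstn were Grm7, Papss2, Col9a1, Msx1 and Twist1. They were the closest of 12390 named genes with a mean of at least 1 CPM, with a root mean square difference of centred log2 CPM of 0.37 for Grm7, 0.41 for Papss2, 0.42 for Col9a1 and 0.44 for both Msx1 and Twist1. Grm7 encodes a metabotropic glutamate receptor, Papss2 an enzyme that makes the sulfate donor for proteoglycans, Col9a1 a chain of a cartilage collagen, and Msx1 and Twist1 transcription factors of cushion mesenchyme. Papss2 averaged 188 ± 48.8 CPM in mutant cushion and 326 ± 113 CPM in wild type cushion, and 14.8 ± 11.6 CPM in mutant ventricle and 24.5 ± 11.6 CPM in wild type ventricle (SD, n = 2 each). Msx1 averaged 11.96 ± 1.13 CPM in mutant cushion and 20.7 ± 3.62 CPM in wild type cushion, and 0.821 ± 0.341 CPM in mutant ventricle and 1.38 ± 0.538 CPM in wild type ventricle. Twist1, which is also one of the 10 mesenchyme markers, averaged 79.6 ± 19.3 CPM in mutant cushion and 106 ± 36.6 CPM in wild type cushion, and 5.39 ± 3.83 CPM in mutant ventricle and 8.18 ± 4.69 CPM in wild type ventricle. Like Mstn, these 3 genes had their highest group mean in wild type cushion and their lowest in mutant ventricle. They were picked for their likeness to Mstn in these same libraries, so the shared order is no separate support. Between the genotypes, Papss2 and Msx1 did not overlap in cushion, while Twist1 did, and all 3 overlapped in ventricle. Grm7, the closest gene, and Col9a1 overlapped between the genotypes in both tissues.

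**Figure D4:**
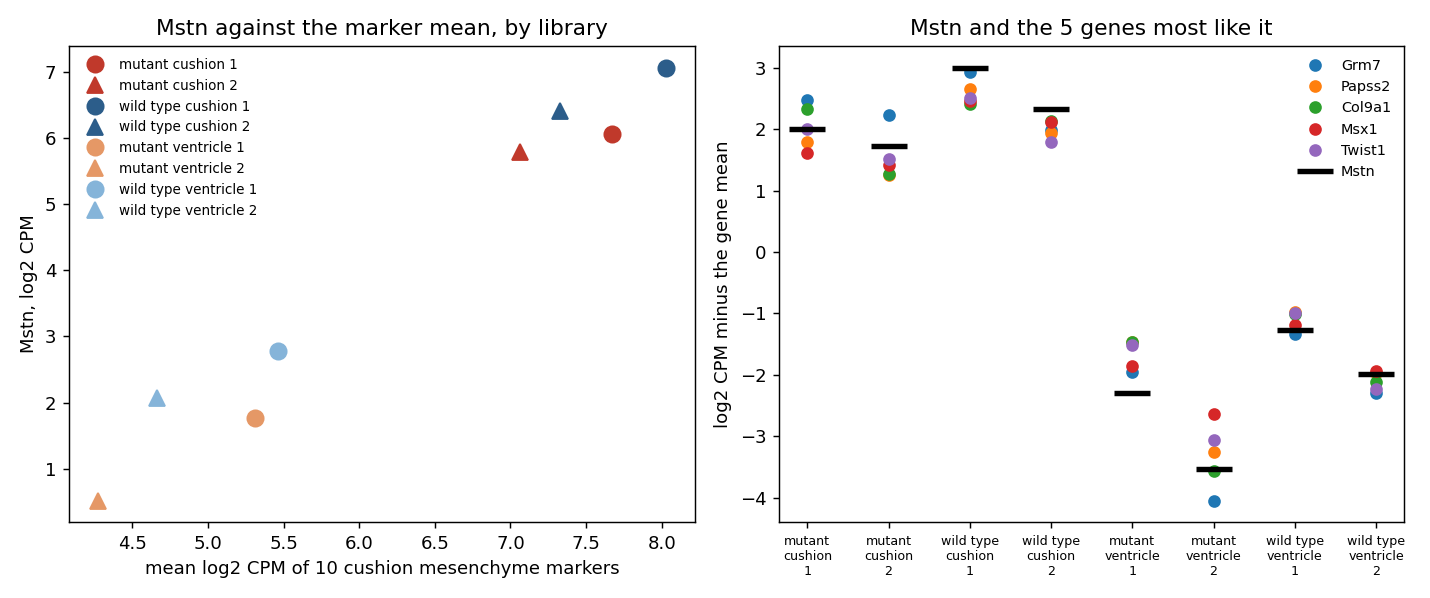
Left, Mstn (y axis, log2 CPM) against the mean log2 CPM of 10 cushion mesenchyme markers (x axis) in each of the 8 libraries. Right, log2 CPM minus the gene's own mean over the 8 libraries (y axis) for Mstn (black bars) and the 5 genes most like it (points), by library (x axis); in each group replicate 1 is above replicate 2 for Mstn.

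The wider pathway was read from 5 lists of 40 further genes, of which 31 could be tested. The 9 others (Inhbc, Inhbe, Nodal, Gdf3, Lefty2, Tdgf1, Cfc1, Tll2 and Foxh1) had 1 to 36 reads in all 8 libraries together. Of the 31 tested genes, 10 passed as higher and 1 as lower in cushion than in ventricle in mutants, and the 31 had a median of 0.70 (log2). In wild type 13 passed as higher and 1 as lower, with a median of 0.79, and the median of all genes was 0.01 in both. The counts were 11 and 14 of 31, beside 9.42% and 23.1% of all genes. They fell to 3, 4 and 5 in mutants without mutant cushion replicate 1, mutant ventricle replicate 1 and mutant ventricle replicate 2, and to 4 in wild type without wild type ventricle replicate 2. With the replicate block 17 passed in mutants and 16 in wild type.

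The largest group of these were genes that answer to SMAD2 and SMAD3. Of the 10, 6 passed as higher in cushion in mutants and 7 in wild type, and 0 passed as lower. Of all 14940 genes, 920 passed as higher in mutants and 1861 in wild type. Not all of the 10 were higher in cushion. Ctgf had a log2 difference of -0.25 in mutants and -0.56 in wild type, where its libraries did not overlap. Tgfb1i1 had -0.09 in mutants and 0.21 in wild type. Tgif1, a corepressor that binds SMADs, was higher by 1.74 ± 0.16 in mutants and 1.94 ± 0.16 in wild type on the log2 scale (adjusted p = 0.00121 and 4.09e-04, edgeR). Ltbp2, an extracellular matrix protein, was higher by 2.49 ± 0.62 and 3.11 ± 0.62 (adjusted p = 0.0435 and 0.0119). Skil, Pmepa1 and Bhlhe40 also passed in both genotypes, with differences between 0.70 and 1.20. Smad7, the inhibitory SMAD that TGF-β signals induce, was higher by 1.51 ± 0.17 in mutants and 1.49 ± 0.17 in wild type (adjusted p = 0.00225 and 0.0012).

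Among receptors, Bambi, a pseudoreceptor, was higher in cushion by 0.85 ± 0.12 in mutants and 1.12 ± 0.12 in wild type (adjusted p = 0.00495 and 9.64e-04, edgeR), while Tgfbr3, a co-receptor also known as betaglycan that binds inhibin, was lower, at -1.87 ± 0.36 in mutants and -1.82 ± 0.36 in wild type (adjusted p = 0.024 and 0.0148). Tgfbr1 passed in mutants (0.71 ± 0.13, adjusted p = 0.0129), as did the type I receptor Acvr1c (2.49 ± 0.59, adjusted p = 0.0471, and 0.0549 with the replicate block). In wild type both were higher in cushion without overlap but did not pass in edgeR. Tgfbr1 had 0.275 ± 0.127 there (adjusted p = 0.147) and Acvr1c 1.96 ± 0.57 (adjusted p = 0.0519). The proteases that mature these ligands passed in wild type: Furin by 1.31 ± 0.20, Pcsk5 by 0.74 ± 0.22 and Bmp1 by 1.69 ± 0.25 (adjusted p = 0.00412, 0.0454 and 0.00401). In mutants all 3 missed the threshold (adjusted p = 0.0579, 0.0798 and 0.0623) and passed with the replicate block. Gdf11, the closest relative of Mstn, was 0.71 ± 0.17 higher in wild type cushion than in wild type ventricle (adjusted p = 0.0218). In mutants the Gdf11 libraries of the tissues overlapped and the difference did not pass (0.18 ± 0.17, adjusted p = 0.569, edgeR).

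**Figure D5:**
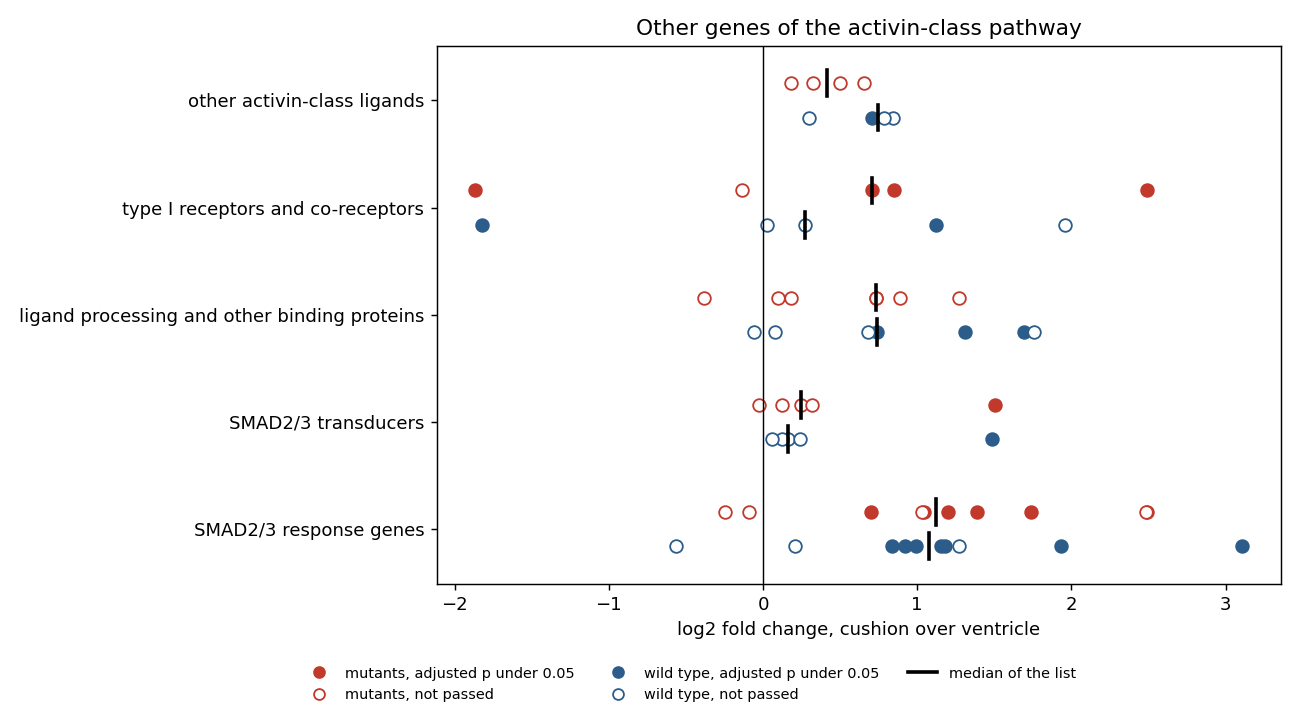
Log2 fold change of cushion over ventricle (x axis) for the 31 tested genes of the 5 pathway lists (y axis), in mutants (red, upper row of each list) and wild type (blue, lower row); filled circles passed an adjusted p of 0.05 in edgeR and black bars are medians. The SMAD2/3 response genes lie mostly to the right of 0, and Tgfbr3 is the filled point on the left in both genotypes.

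Between mutants and wild type, 0 of the 31 pathway genes passed in cushion, in ventricle or for the difference between the tissues in edgeR, as for all genes. In cushion the 2 genes with the smallest p-values in each direction in edgeR were as follows. Values were higher in mutants for Ctgf, at 0.70 ± 0.30 on the log2 scale (adjusted p = 0.438), and Tgfbr1, at 0.24 ± 0.13 (0.48). Ctgf, a matrix-associated growth factor gene, is one of the 10 genes that answer to SMAD2 and SMAD3. Values were lower for Gdf11, at -0.47 ± 0.17 (0.435), and Furin, at -0.53 ± 0.20 (0.435). With the replicate block 2 passed in cushion, both lower in mutants as were 0.569% of all genes: Bmp1, the protease that cleaves the myostatin propeptide (-0.62 ± 0.11, adjusted p = 0.0252), and Ltbp3, a latent ligand binding protein (-0.72 ± 0.14, adjusted p = 0.031). In ventricle the 2 with the smallest p-values in each direction were Bhlhe40 (0.21), Ctgf (0.38), Tll1 (-0.39) and Tgfbr1 (-0.20), each with an adjusted p of 0.998. For the difference between the tissues the 2 in each direction were Tgfbr1 (0.43, adjusted p = 0.415), Cdkn2b (1.21, 0.596), Bmp1 (-0.80, 0.419) and Gdf11 (-0.52, 0.422).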

How the data were processed

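Total RNA was prepared with a Qiagen micro kit and sequenced from stranded, ribosome-depleted libraries, per the labels' protocols. Bowtie 0.12.7 and the mm9 build are named in the submitters' processing notes; the annotation, the counter and its strand setting were not given in the sources used here, so overlapping genes on opposite strands are uncertain. The authors deposited unnormalized whole-number counts, summing to 26562828 to 37694738 per library over all rows. The 8 deposited tables are identical, and 1 was read. For symbols on several rows the row of highest total was used.

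Testing used edgeR 4.0.16 (R 4.3.3), with TMM scaling, the tool's expression filter by group, a robust quasi-likelihood fit of group means, two-sided tests and Benjamini-Hochberg adjustment across 14940 genes at a threshold of 0.05. Values after ± in log2 terms are standard errors. Replicates differed beyond sampling noise in all groups (chi-square per degree of freedom 44.1 to 113.5), so no 2 libraries were counted as 1. Replicate numbers 1 and 2 recur in all groups; same-numbered libraries deviated together (r across genes 0.341 to 0.522 over the 6 pairs of groups), and a principal component holding 14.1% of the variance split 1 from 2, so the pairing is one seen in the data and not stated by the labels. DESeq2 1.42.0, limma-voom (limma 3.58.1), size factors by relative log expression, no filter, summed rows, a GC and length offset (spline, 98.2% of symbols matched to GENCODE vM21), the contrast's own libraries and leaving out each library were alternatives. The fit was tested on simulated data. Promoter letters are from RefSeq; the build differs from that of the counts, so no coordinate was joined to a count. The 8 genes, the pathway and marker lists, and the tests were chosen with earlier results of these data known. The genes named are the 8, every pathway gene that passed or, where none did, the 2 with the smallest p in each direction, the 5 closest to Mstn in pattern, and Klf2; some pathway genes that passed are counted but not reported here by name.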

Additional observations from a re-analysis of the deposited data

Results flagged for a closer look

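Acvr2a is singled out because its genotype difference ran in opposite directions in the 2 tissues. Both mutant cushions (91.6 and 86.2 CPM) lay above both wild type cushions (77.1 and 67.8 CPM), and both mutant ventricles (86.2 and 70.9 CPM) lay below both wild type ventricles (95.3 and 97.5 CPM). The difference in cushion minus that in ventricle was 0.59 on the log2 scale. It was noted from these directions and carries no test of its own, since the set was chosen from the genotype comparison. Of all 14940 genes, 0 passed the test of that difference in edgeR, with or without the replicate block, 1776 had an unadjusted p under 0.05 without the block, and DESeq2 called 0. Without overlap, 24.5% of all genes were higher in mutant cushion and 14.6% were lower in mutant ventricle. How many did both was not counted. Tgfbr1, one of the pathway genes, ran in the same directions without overlap (log2 0.24 in cushion and -0.20 in ventricle). With the GC and length adjustment the Acvr2a difference between the tissues was 0.18. The cause was not tested.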

How the results depend on the processing

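Mstn and Fst kept their tissue calls in all 17 alternatives in both genotypes. Of the 272 recomputed tissue values of the 8 genes, 245 kept their call, 16 lost it and 11 gained it; of 400 genotype values, 363 moved by less than 1 SD, 37 by more, and 0 called values reversed. With the replicate block, genes called between genotypes were 129 in cushion and 1 in ventricle (0 and 0 without it), genes called between tissues were 3572 in mutants and 6180 in wild type (1407 and 3452 without it), 7 of the 8 genes were called in wild type (4 without it), and pathway genes called were 2 in cushion between genotypes and 17 in mutants between tissues (0 and 11 without it). The block changed no other tissue call of the 8 genes than those given with their results. With the GC and length offset and the block together the counts were 74 in cushion and 1 in ventricle between genotypes, 4726 in mutants and 6157 in wild type between tissues, and 17 pathway genes in mutants; with the offset alone 2178 genes passed in mutants. DESeq2 called 25 genes in cushion and 1 in ventricle between genotypes, and 17 pathway genes in mutants between tissues. Without the filter 5 genes passed in cushion. With only the contrast's libraries the counts were 1 in cushion and 1 in ventricle between genotypes, and 641 genes and 7 pathway genes in mutants between tissues.

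Leaving out 1 library gave 0 to 1 genes in cushion and 0 to 1 in ventricle between genotypes, 309 (without mutant cushion replicate 1) to 1301 in mutants and 739 (without wild type ventricle replicate 2) to 3498 in wild type between tissues, 2 to 5 of the 8 genes in each genotype, 3 to 13 pathway genes in mutants and 4 to 14 in wild type; the lone library left in a group is then assumed to vary like the others. The difference between the tissues' genotype effects gave 0 genes in each alternative, and its fit with only the contrast's libraries is the same as the fit reported. Genotype signs of Inhba, Fstl1 and Fstl3, of Inhbb in cushion and of Acvr2b in ventricle changed when single libraries were left out. Over the alternatives Inhba in cushion ran from -0.32 to 0.55 and Fstl3 in cushion from -0.49 to 0.52. Inhbb in cushion ran from -0.34 to 0.39 (the highest with the GC and length offset and the block) and Acvr2b in ventricle from -0.49 to 0.90. Inhbb in ventricle stayed positive, from 0.23 to 0.40. The tissue value of Acvr2a in mutants, which did not pass, was -0.05 with the GC and length offset. Where a call changed, the cause was not tested. Depth limits Inhbb and Acvr2b, at about 2 to 5 CPM, and Mstn in ventricle, at 30 to 127 reads.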
